A study of Mus musculus with 45 samples.

Results

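The genes described here are 46 genes of the cell cycle and of DNA replication, out of 39179 Ensembl genes listed in the read count tables of mouse liver. They were chosen by name, with no measured value in the rule, but with earlier results of these data known. They comprise 8 G1 cyclins and E2F factors and 16 genes of the replication origin, the fork and the nucleotide supply. The others are 14 G2 and mitotic kinases, cyclins and their factors, and 8 spindle, kinetochore and chromosome proteins. All 46 passed the detection rule of more than 4 reads in any mouse, as did 17464 genes in all.

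The livers came from female C57BL/6 mice, stated in the labels but not in the methods to be ovariectomized. Mice were gavaged with sesame oil, the vehicle, or with TCDD (2,3,7,8-tetrachlorodibenzo-p-dioxin), the most potent of the dioxins and a ligand of the aryl hydrocarbon receptor. Dosing began on postnatal day 28 and was repeated every 4 days for 28 days by the methods, while the labels speak both of daily gavage and of this interval, at 8 doses of 30, 10, 3, 1, 0.3, 0.1, 0.03 or 0.01 µg/kg. Each of the 9 groups held 5 mice, all 45 mice had the same strain and sex, and mice are named by their group and a number that only follows the order of deposition.

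A cell enters the cycle from G1 when D-type cyclins with their kinases, and then cyclin E, inactivate the retinoblastoma family of repressors and free E2F factors. E2F factors switch on the genes that load and fire replication origins and that supply nucleotides. In G2, the factors B-MYB (Mybl2) and FOXM1 act with a repressor-activator complex at a promoter element called the CHR to raise the mitotic genes. Most hepatocytes of an adult liver are outside the cycle, and the RNAs of S phase and mitotic genes are most abundant in cells that are in those phases, whichever cell type they belong to. Whether more cells of a type or more RNA per cell lay behind a difference cannot be told apart in RNA from whole liver.

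Promoters of 7 of the genes are printed here because they show the elements named above and belong to genes whose levels are described further on. RefSeq promoters on GRCm38.p6 were found for 35 of the 46 genes. No entry was matched for Aurkb, Ccna2, Ccnd1, Ccnd2, Ccne2, Foxm1, Gins1, Gins2, Kif20a, Mcm4 and Tpx2. Each line gives the 250 bases before the transcription start, 5′ to 3′ on the gene's strand. Capitals mark a CHR (TTTGAA) or an E2F element (TTTCCCGC, TTTCGCGC, TTTGCCGC or TTTGGCGC), read on either strand, so that a match on the other strand appears as its reverse complement.
Mki67, chr7:135716380-135716629, minus strand: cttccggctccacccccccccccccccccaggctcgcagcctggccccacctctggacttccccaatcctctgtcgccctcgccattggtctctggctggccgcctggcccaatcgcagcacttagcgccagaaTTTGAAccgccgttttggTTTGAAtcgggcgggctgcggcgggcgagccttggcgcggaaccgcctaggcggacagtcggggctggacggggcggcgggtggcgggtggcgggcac
Top2a, chr11:99024190-99024439, minus strand: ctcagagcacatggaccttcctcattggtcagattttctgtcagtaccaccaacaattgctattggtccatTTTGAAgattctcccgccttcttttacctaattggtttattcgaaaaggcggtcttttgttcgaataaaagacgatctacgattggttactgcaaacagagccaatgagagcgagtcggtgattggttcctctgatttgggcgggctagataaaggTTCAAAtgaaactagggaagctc
Cdk1, chr10:69352913-69353162, minus strand: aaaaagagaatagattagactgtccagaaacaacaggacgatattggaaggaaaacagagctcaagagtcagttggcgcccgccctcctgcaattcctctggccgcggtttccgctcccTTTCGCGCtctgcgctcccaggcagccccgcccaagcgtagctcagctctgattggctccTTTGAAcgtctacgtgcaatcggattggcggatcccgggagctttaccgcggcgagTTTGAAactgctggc
Ube2c, chr2:164769679-164769928, plus strand: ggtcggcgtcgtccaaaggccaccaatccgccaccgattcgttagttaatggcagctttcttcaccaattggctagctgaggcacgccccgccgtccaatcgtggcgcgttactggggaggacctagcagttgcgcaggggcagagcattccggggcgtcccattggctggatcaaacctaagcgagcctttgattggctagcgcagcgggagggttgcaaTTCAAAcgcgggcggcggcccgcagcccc
E2f8, chr7:48881597-48881846, minus strand: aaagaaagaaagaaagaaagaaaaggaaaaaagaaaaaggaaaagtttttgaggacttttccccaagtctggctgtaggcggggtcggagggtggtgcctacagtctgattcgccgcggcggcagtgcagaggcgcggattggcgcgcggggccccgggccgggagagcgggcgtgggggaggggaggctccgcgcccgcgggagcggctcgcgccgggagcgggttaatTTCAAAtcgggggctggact
Mcm5, chr8:75109259-75109508, plus strand: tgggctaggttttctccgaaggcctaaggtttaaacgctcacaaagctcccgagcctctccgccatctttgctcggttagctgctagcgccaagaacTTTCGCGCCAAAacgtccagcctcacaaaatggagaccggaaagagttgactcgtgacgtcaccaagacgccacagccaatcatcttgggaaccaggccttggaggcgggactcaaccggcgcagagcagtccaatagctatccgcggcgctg
Mcm6, chr1:128359706-128359955, minus strand: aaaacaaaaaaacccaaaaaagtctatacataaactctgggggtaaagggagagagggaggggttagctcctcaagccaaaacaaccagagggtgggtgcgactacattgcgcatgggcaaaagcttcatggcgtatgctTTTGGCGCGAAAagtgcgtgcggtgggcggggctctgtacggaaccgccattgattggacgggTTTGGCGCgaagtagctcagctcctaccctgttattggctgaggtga
The CHR letters stood in 2 places each before Mki67, Top2a and Cdk1 and in 1 place each before Ube2c and E2f8. E2F letters stood in 3 places before Mcm6, 2 before Mcm5 and 1 before Cdk1. In Mcm5 and Mcm6 a capital run longer than 8 bases is a pair of overlapping matches on opposite strands.

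Over the full window of 300 bases, from 250 before to 50 after the start, a CHR stood in 14 of the 35 promoters against 18.1% of 27025 RefSeq promoters. The mitotic lists held most of these matches, with 7 of 11 promoters of G2 and mitotic regulators and 4 of 6 of spindle and chromosome proteins, whereas the replication list had 2 of 13. An E2F element stood in 9 of the 35 promoters against 2.32% of all promoters, and 7 of those 9 were in the replication list. The CCAAT box (CCAAT) stood in 25 of the 35 against 37.9% of all. The core of the dioxin response element (GCGTG), which the aryl hydrocarbon receptor complex binds, stood in 19 of the 35 against 32.5% of all, and no E2F match overlapped it. A match describes the letters in the window and shows no binding. The 27025 promoters were not matched to those of the 35 genes for base composition, on which such shares also depend.

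Libraries held 11.8 to 56.5 M reads on genes, with a median of 17.2 M, and low genes have the least precise values. Levels are CPM, read counts divided by the library size in M reads after TMM scaling of the library sizes. In the vehicle livers 23 of the 46 genes averaged under 1 CPM, and 39 were seen with over 4 reads in some vehicle mouse. Every gene is compared with the vehicle by edgeR's quasi-likelihood test over all 17464 genes, and is called higher or lower at a Benjamini-Hochberg adjusted p under 0.05. The 5 livers of a group came from separate mice. Reads of 14 of the 46 genes overlap an exon of a gene on the other strand, among them Ccnd1, Ccnd3, Ccna2, Cdc20, Ube2c, E2f8 and Gins2. The strand setting of the counting is not given in the sources used here. Whether reads in such shared exons were counted for the gene or left out as falling on no single gene is thus not known.

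At 30 µg/kg most of the genes were higher than in vehicle livers. Of the 46 genes, 30 rose, 27 of them by at least 2-fold, and 1 fell. Over all genes 15.5% rose and 14.1% fell, while 8.03% rose by at least 2-fold. The median log2 fold change of the 46 genes was 1.29, beside 0.02 over all genes. All 5 mice at 30 µg/kg lay above all 5 vehicle mice for 17 genes and below them for 1 gene, which over all genes held for 10.3% and 9.57%. When the mean of the 4 groups from 0.01 to 0.3 µg/kg took the place of the vehicle, a comparison chosen after seeing the data, 13 genes rose and 2 fell (19.4% and 18.3% of all genes). These 13 were Ccnd2, Ccnd3, E2f1, Cdc6, Cdt1, Gins2, Mcm2, Mcm3, Mcm4, Mcm5, Mcm6, Ccnb2 and Ube2c, with none of the 8 spindle, kinetochore and chromosome genes among them, and the 2 that fell were E2f8 and Rrm2.

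**Figure D1:**
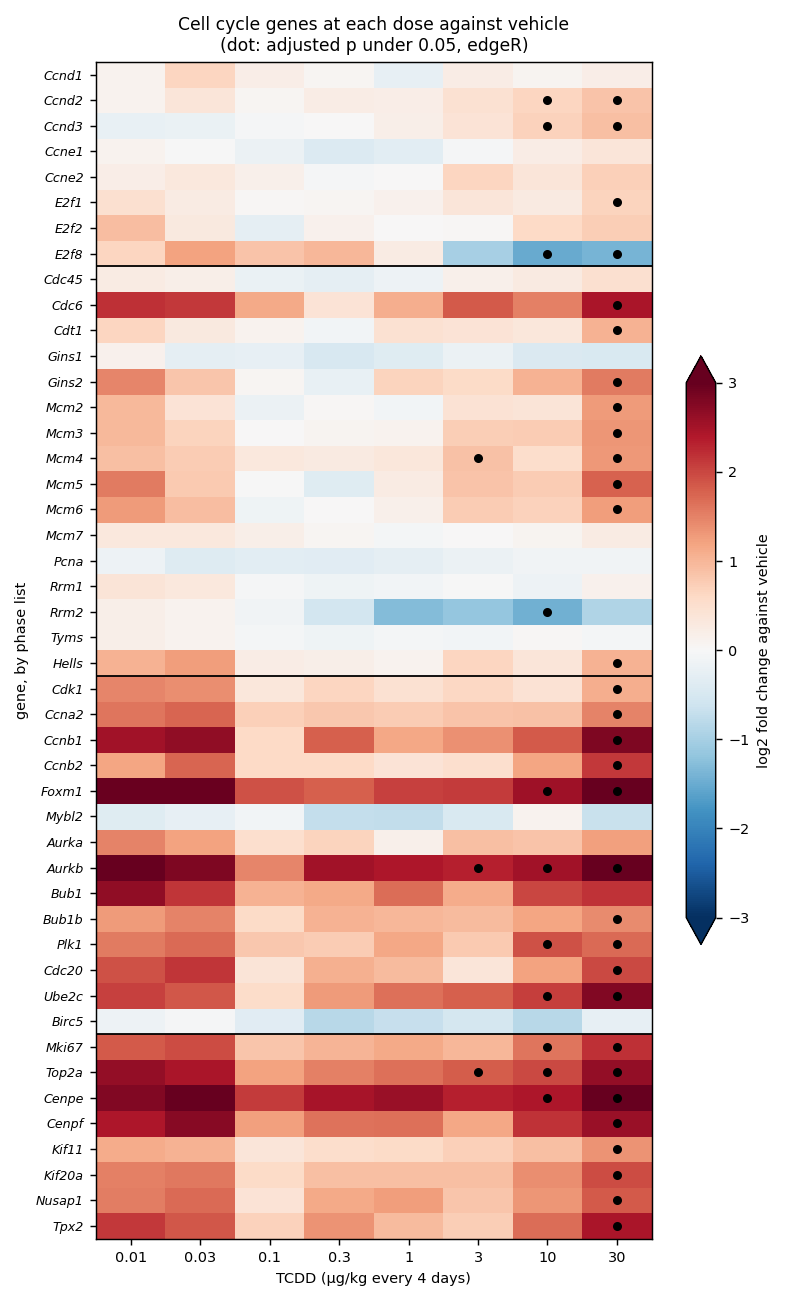
Log2 fold change of each of the 46 genes against vehicle (colour scale, cut at -3 and 3) at each of the 8 doses in µg/kg, with genes in rows by list (lines between lists) and a black dot at an edgeR adjusted p under 0.05. Dots number 31 at 30 µg/kg, 11 at 10 and 3 at 3, and none lie at lower doses, although many squares at 0.01 and 0.03 µg/kg are as red as those at 30.

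All 4 lists had more genes that rose than fell. At 30 µg/kg all 8 spindle, kinetochore and chromosome genes rose, with a median log2 fold change of 2.32. Of the 14 G2 and mitotic regulators 10 rose and none fell, with a median of 1.84. Of the 16 replication genes 9 rose and none fell, with a median of 1.04, and of the 8 G1 cyclins and E2F factors 3 rose and 1 fell, with a median of 0.69. The differences between lists were not tested.

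**Figure D2:**
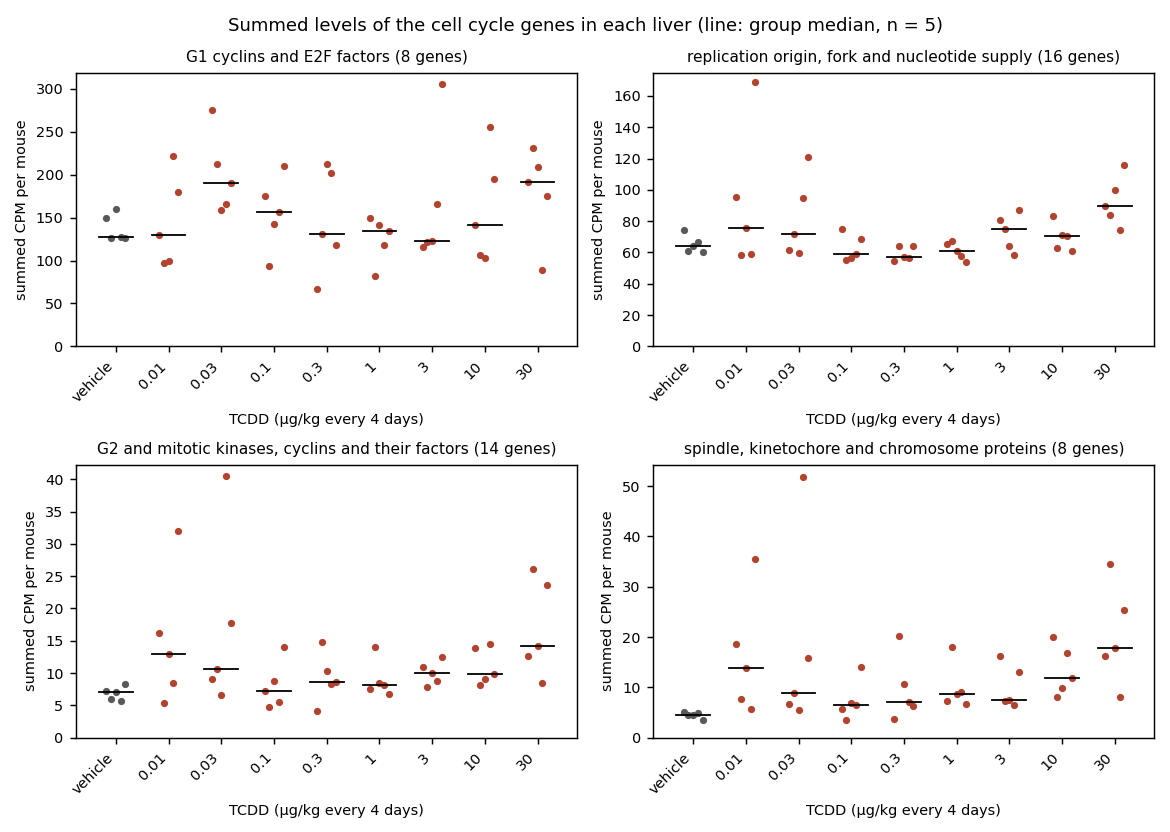
Summed CPM of each list in each of the 45 livers (points; grey, vehicle; red, TCDD) by dose in µg/kg, with the group median as a line (n = 5). The spindle list spans 3.54 to 5.02 in the vehicle mice and 8.02 to 34.5 at 30 µg/kg, and the highest point, 51.9, is a mouse at 0.03 µg/kg.

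Among the G1 genes, the D-type cyclins take up growth signals and partner CDK4 and CDK6. Ccnd3, cyclin D3, had 19.7, 15.4, 20.2, 16.6 and 23.1 CPM in the vehicle mice and 30.0, 32.1, 39.3, 39.8 and 37.8 CPM at 30 µg/kg. The groups did not overlap, and Ccnd3 rose 1.88-fold (log2 fold change 0.91 ± 0.14 SE, edgeR adjusted p = 1.2e-06). Its mean was 21.5 CPM at 1, 25.2 at 3, 30.8 at 10 and 35.8 at 30 µg/kg, and at 10 µg/kg all mice were again above the vehicle mice. It was the member with the smallest adjusted p at 10 µg/kg (0.00023, 1.62-fold) and in the joint test over the 8 doses (1.1e-09).

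Ccnd2, cyclin D2, had 9.13, 4.71, 7.95, 7.06 and 6.82 CPM in the vehicle mice and 13.5, 13.8, 16.2, 7.52 and 13.4 CPM at 30 µg/kg. The 4th mouse at 30 µg/kg lay within the vehicle range and the other 4 above it, and the gene rose 1.81-fold (adjusted p = 0.00060). Ccnd1, cyclin D1, the D cyclin that hepatocytes use in regeneration, had the most RNA per kilobase of exon of the 46 genes in vehicle livers, 22.1 CPM per kb, beside 4.93 for Pcna and 2.17 for Ccnd3. Its level was 113, 99.0, 121, 97.4 and 90.9 CPM in the vehicle mice and 137, 175, 144, 33.9 and 111 CPM at 30 µg/kg, so that the dosed mice lay on both sides of the vehicle range. The difference in Ccnd1 did not pass the test (1.15-fold, adjusted p = 0.75), and its levels also spread widely at 10 µg/kg, from 50.8 to 202 CPM.

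Cyclin E starts S phase with CDK2. Ccne1 (1.29-fold, adjusted p = 0.61) and Ccne2 (1.64-fold, adjusted p = 0.16) did not pass the test at 30 µg/kg. E2f1, an activator of S phase genes, rose 1.58-fold (adjusted p = 0.038), and E2f2, a second activator, did not pass (1.67-fold, adjusted p = 0.19). The call of E2f1 was lost in 9 of its 19 alternatives.

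E2f8 went the other way at the high doses. It encodes an atypical E2F that represses the targets of the activators and is known in liver for its part in making hepatocytes polyploid. The vehicle mice had 1.98, 1.72, 2.77, 1.11 and 1.26 CPM, and the mice at 30 µg/kg 0.361, 0.801, 0.707, 0.669 and 0.882 CPM, with no overlap. E2f8 fell by 1.39 on the log2 scale at 30 µg/kg (SE 0.49, adjusted p = 0.029) and by 1.51 at 10 µg/kg (SE 0.48, adjusted p = 0.026). At 3 µg/kg all mice were again below the vehicle mice (0.512 to 1.09 CPM, adjusted p = 0.20). At 0.03 µg/kg all mice were above them, with 3.15, 3.25, 4.88, 6.24 and 2.86 CPM, a log2 difference of 1.20 that did not pass the test (adjusted p = 0.26). Group means of E2f8 were 1.77 CPM in vehicle, 4.07 at 0.03, 3.50 at 0.3 and 0.684 at 30 µg/kg. Leaving out vehicle mouse 1, vehicle mouse 3 or mouse 1 at 30 µg/kg ended the call at 30 µg/kg, with log2 fold changes of -1.34, -1.16 and -1.21.

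**Figure D3:**
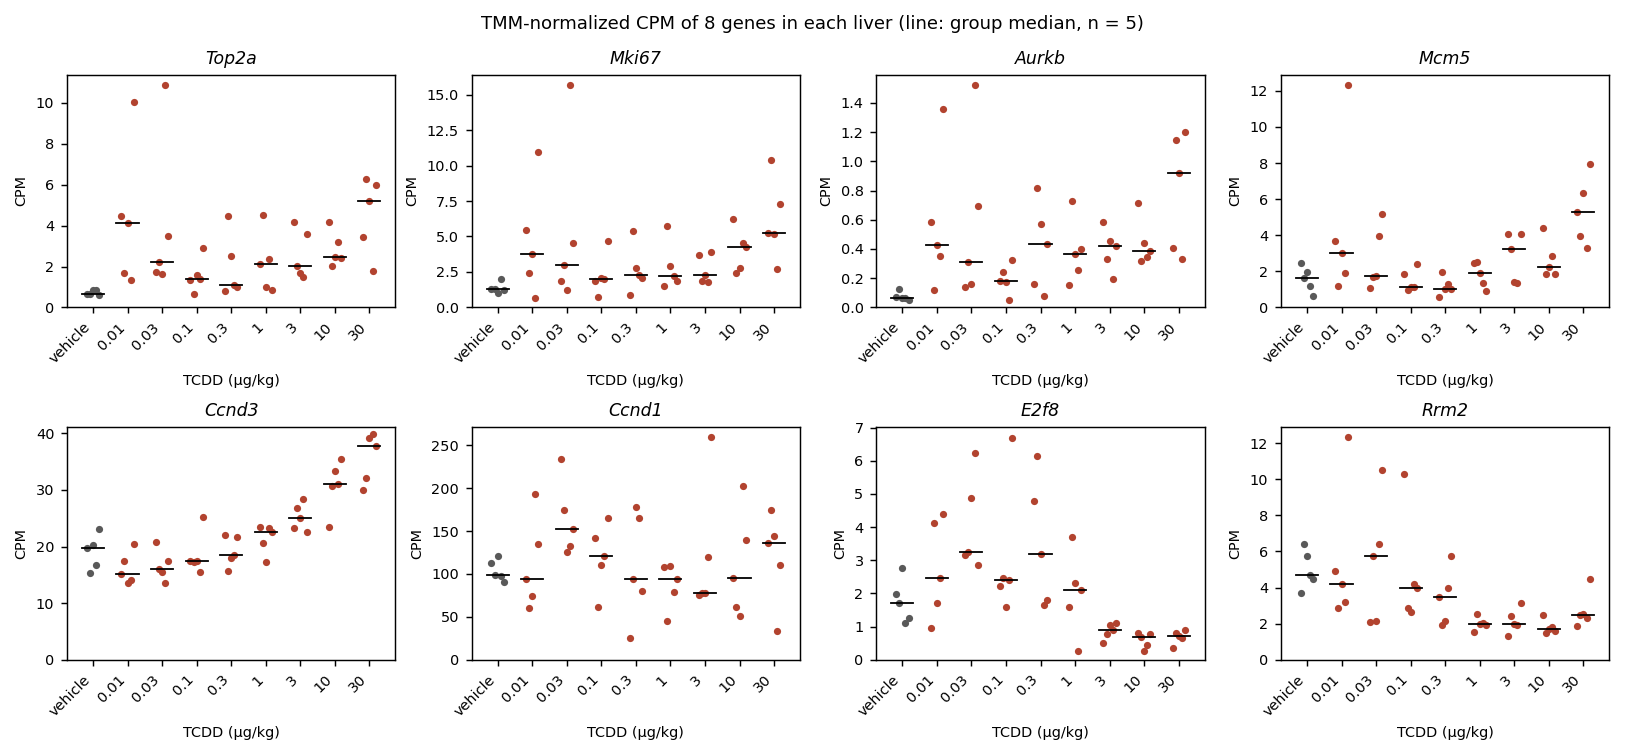
TMM-scaled CPM of 8 genes in each of the 45 livers (points; grey, vehicle; red, TCDD) by dose in µg/kg, with the group median as a line (n = 5). Ccnd3 climbs from 1 µg/kg on, E2f8 and Rrm2 are low at 3 to 30 µg/kg and Rrm2 also at 1 µg/kg, and Ccnd1 shows no such course. Top2a, Mki67, Aurkb and Mcm5 are highest in mice at 0.01 or 0.03 µg/kg, although 30 µg/kg has the highest median.

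The replication genes load, start and feed the copying of DNA. MCM2 to MCM7 form the ring-shaped helicase, which CDC6 and CDT1 load on origins, and 5 of the 6 MCM genes rose at 30 µg/kg. Mcm4 had 4.10, 4.26, 2.83, 3.40 and 3.29 CPM in the vehicle mice and 8.25, 7.38, 9.55, 6.02 and 13.2 CPM at 30 µg/kg, and rose 2.48-fold (adjusted p = 0.00018). Mcm5 had 2.48, 1.65, 1.97, 1.18 and 0.657 CPM in the vehicle mice and 5.27, 3.95, 6.33, 3.29 and 7.93 CPM at 30 µg/kg, and rose 3.40-fold (adjusted p = 0.0036). The groups did not overlap for Mcm4 or Mcm5.

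Mcm3 had 5.02, 2.80, 2.34, 3.65 and 3.08 CPM in the vehicle mice and 8.11, 7.56, 9.83, 4.90 and 11.6 CPM at 30 µg/kg, and rose 2.49-fold (adjusted p = 0.00042). Mcm2 had 3.47, 1.91, 1.97, 2.29 and 1.82 CPM in the vehicle mice and 6.18, 4.98, 6.37, 2.45 and 7.69 CPM at 30 µg/kg, and rose 2.42-fold (adjusted p = 0.0025). In both genes only mouse 4 at 30 µg/kg came below the highest vehicle mouse. Mcm6, whose promoter held 3 E2F matches, rose 2.40-fold (adjusted p = 0.0091). Mcm7 did not pass (1.19-fold, adjusted p = 0.26). Its exons overlap those of 4 other genes.

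The loaders rose as well. Cdt1 had 2.19, 2.03, 1.66, 1.42 and 1.47 CPM in the vehicle mice and 3.29, 3.49, 3.36, 3.18 and 4.81 CPM at 30 µg/kg, a 2.06-fold rise (adjusted p = 0.0019) with no overlap. Cdc6 had 1 to 3 reads in each vehicle mouse, or 0.0616 to 0.212 CPM, and 0.496, 0.401, 0.530, 0.446 and 1.44 CPM at 30 µg/kg, a fitted 5.48-fold rise (adjusted p = 0.0027) with no overlap. Gins2, a subunit of the GINS complex that completes the helicase, had 0.778, 0.572, 0.185, 0.248 and 0.354 CPM in the vehicle mice and 1.22, 1.32, 1.49, 1.00 and 1.20 CPM at 30 µg/kg (2.96-fold, adjusted p = 0.0073). Gins1, another subunit, did not pass and had a fitted fold change of 0.725 (adjusted p = 0.071), and neither did Cdc45, the third part of the active helicase (log2 fold change 0.49, adjusted p = 0.24). Hells, a chromatin remodeller, rose 2.07-fold (adjusted p = 0.022).

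The genes of the nucleotide supply and of the sliding clamp were not among those that rose. Pcna, the clamp, had mean levels of 11.8 ± 1.23 CPM (SD, n = 5) in vehicle and 11.1 ± 1.57 at 30 µg/kg (adjusted p = 0.65). Tyms, thymidylate synthase, had 5.38 ± 0.407 and 5.13 ± 0.383 CPM (adjusted p = 0.77). Rrm1, the large subunit of ribonucleotide reductase, had 13.0 CPM in vehicle and 14.3 at 30 µg/kg (adjusted p = 0.55), although the joint test over doses passed (adjusted p = 0.027). The signs of Pcna and Tyms at 30 µg/kg turned to 0.11 and 0.15 on the log2 scale without scaling factors.

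Rrm2, the small subunit that limits the enzyme in S phase, was lower at the high doses. It had 3.68, 6.42, 5.73, 4.70 and 4.50 CPM in the vehicle mice and 2.47, 1.48, 1.71, 1.83 and 1.58 CPM at 10 µg/kg, with no overlap, and fell by 1.45 on the log2 scale (SE 0.39, adjusted p = 0.0077). All mice at 1 and 3 µg/kg were also below the vehicle mice, at 1.52 to 2.53 and 1.32 to 3.15 CPM, with adjusted p of 0.086 and 0.051. At 30 µg/kg the mice had 1.89, 2.46, 2.51, 2.28 and 4.49 CPM, and the log2 fold change of -0.90 did not pass (adjusted p = 0.073). Mouse 5 at 30 µg/kg lay within the vehicle range. Without that mouse the call was made, at a log2 fold change of -1.15.

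Among the G2 and mitotic regulators, Aurkb, the Aurora kinase of the chromosomal passenger complex, had 1, 2, 1, 1 and 1 reads in the vehicle mice. At 30 µg/kg it had 0.406, 1.14, 0.919, 0.334 and 1.20 CPM, beside 0.0505 to 0.127 CPM in the vehicle mice, a fitted 10.0-fold rise (log2 fold change 3.32 ± 0.70 SE, adjusted p = 0.00027). Foxm1, the factor that drives G2 genes, had 0 to 3 reads in each vehicle mouse, at most 0.191 CPM, and 0.676, 0.973, 0.919, 0.390 and 1.84 CPM at 30 µg/kg (fitted 9.08-fold, adjusted p = 0.00041). Ube2c, a ubiquitin carrier of the anaphase-promoting complex, had 0.354, 0.382, 0.185, 0.186 and 0.253 CPM in the vehicle mice and 1.98, 2.40, 1.41, 0.724 and 3.05 CPM at 30 µg/kg (6.86-fold, adjusted p = 0.00098). All mice at 30 µg/kg were above all vehicle mice for the 3 genes. With so few reads in the vehicle mice, the size of the fitted folds of Aurkb and Foxm1 is imprecise. Against the mean of 0.01 to 0.3 µg/kg, Ube2c rose (log2 fold change 1.34, adjusted p = 0.0074), and Aurkb (0.87, adjusted p = 0.068) and Foxm1 (0.77, adjusted p = 0.12) did not pass.

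Cdk1, the kinase of mitotic entry, rose 2.12-fold (adjusted p = 0.036) and its partners Ccna2, Ccnb1 and Ccnb2, cyclins A2, B1 and B2, rose 2.79-, 6.97- and 4.35-fold (adjusted p = 0.016, 0.033 and 0.0094). Plk1, the Polo kinase, rose 3.23-fold (adjusted p = 0.045), Cdc20, the activator of the anaphase-promoting complex, rose 3.97-fold (adjusted p = 0.030), and Bub1b, a spindle checkpoint kinase, rose 2.66-fold (adjusted p = 0.013). Calls of Plk1, Cdk1, Cdc20 and Ccnb1 were lost in 12, 9, 8 and 7 of 19 alternatives each. Bub1, its relative, and Aurka, the centrosomal Aurora kinase, missed the threshold (4.50-fold, adjusted p = 0.055, and 2.36-fold, adjusted p = 0.060), although all mice at 30 µg/kg were above all vehicle mice for both. Mybl2 did not pass and had a fitted fold change of 0.627 (adjusted p = 0.29). Birc5, survivin, the partner of Aurora B, had 2.32 ± 0.911 CPM (SD, n = 5) in vehicle and 2.04 ± 0.861 at 30 µg/kg (adjusted p = 0.63), while Aurkb rose.

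The spindle and chromosome list rose as a whole. Top2a, the topoisomerase that untangles sister chromatids, had 0.637, 0.636, 0.863, 0.866 and 0.607 CPM in the vehicle mice and 3.43, 6.30, 5.20, 1.78 and 6.01 CPM at 30 µg/kg, and rose 6.23-fold (log2 fold change 2.64 ± 0.58 SE, adjusted p = 0.00046). Mki67, which coats mitotic chromosomes and encodes the proliferation marker Ki-67, had 1.27, 1.27, 0.986, 1.98 and 1.21 CPM in the vehicle mice and 5.23, 10.4, 5.20, 2.67 and 7.29 CPM at 30 µg/kg, and rose 4.55-fold (adjusted p = 0.0032). The groups did not overlap for either gene. Against the mean of 0.01 to 0.3 µg/kg, neither Top2a (log2 fold change 0.69 ± 0.37 SE, adjusted p = 0.14) nor Mki67 (0.77 ± 0.39, adjusted p = 0.12) passed.

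Cenpe, the kinetochore motor, had 0 to 4 reads in each vehicle mouse, at most 0.202 CPM, and 0.766, 1.26, 0.919, 0.279 and 1.36 CPM at 30 µg/kg (fitted 7.91-fold, adjusted p = 0.0039). Kif11, the motor that pushes spindle poles apart, had 0.778, 0.890, 1.42, 0.495 and 0.708 CPM in the vehicle mice and 2.57, 2.80, 1.80, 1.11 and 2.81 CPM at 30 µg/kg (2.56-fold, adjusted p = 0.0044), with mouse 4 within the vehicle range. Tpx2, which nucleates spindle microtubules, rose 5.50-fold (adjusted p = 0.0076), Cenpf, a kinetochore protein, 5.97-fold (adjusted p = 0.012), Kif20a, a motor of cytokinesis, 3.85-fold (adjusted p = 0.011), and Nusap1, a microtubule bundler, 3.61-fold (adjusted p = 0.014). Mouse 4 had the lowest summed level of the 5 mice at 30 µg/kg in this list, 8.02 CPM, and the others had 16.3 to 34.5 CPM. Without mouse 4 the number of the 46 genes called higher was 32 and without mouse 2, the highest, it was 20.

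At 10 µg/kg 9 of the 46 genes rose and 2 fell, against 8.47% and 7.47% of all genes. Those that rose were Ccnd2, Ccnd3, Foxm1, Aurkb, Plk1, Ube2c, Mki67, Top2a and Cenpe, 7 of them by at least 2-fold (3.81% of all genes), and those that fell were E2f8 and Rrm2, a share below that over all genes. None of the replication genes rose at 10 µg/kg. Foxm1 rose 5.87-fold, Aurkb 5.75-fold and Top2a 3.97-fold (edgeR adjusted p = 0.0099, 0.013 and 0.015). At 10 µg/kg all mice lay above all vehicle mice for 12 genes and below them for 2, against 8.1% and 6.13% of all genes. Leaving out vehicle mouse 4 or mouse 1 or 4 at 10 µg/kg left 5 genes called higher. Against the mean of 0.01 to 0.3 µg/kg, 2 genes rose, Ccnd2 and Ccnd3, and 2 fell, E2f8 and Rrm2 (12.6% and 11.7% of all genes).

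At 3 µg/kg Mcm4, Aurkb and Top2a rose (1.84-, 5.02- and 3.52-fold, adjusted p = 0.033, 0.044 and 0.048), and no gene of the 46 fell, beside 3.2% of all genes. With 4.34% of all genes called higher, 3 of 46 is not far from the background. Against the mean of 0.01 to 0.3 µg/kg only Ccnd3 rose, and E2f8 and Rrm2 fell (5.55% and 3.73% of all genes). Leaving out any of the 5 vehicle mice, or mouse 1, 2 or 5 at 3 µg/kg, left 0 or 1 of the 46 called higher.

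Between 30 and 10 µg/kg none of the 46 genes passed the edgeR test, where 0.429% of all genes were higher and 0.183% lower. DESeq2 called 0 of the 46 in either direction, beside 85 higher and 56 lower of 17464 genes. An unadjusted p under 0.05 was reached by 5 of the 46 with edgeR, and the share over all genes was not counted for this contrast. Of the 46 genes 42 were fitted above 0, with a median log2 fold change of 0.54, beside -0.0018 over all genes. The smallest edgeR adjusted p was that of Mcm4 (0.21, 1.71-fold). The joint test over the 8 doses passed for 21 of the 46 genes, against 28.8% of all genes, among them 11 of the 16 replication genes, 5 of the 14 G2 and mitotic regulators, 3 of the 8 G1 genes and 2 of the 8 spindle genes.

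At the 2 lowest doses the levels were high in some mice and the test passed for none of the 46 genes. At 0.01 µg/kg 42 of the 46 genes were fitted above 0, 25 of them by more than 2-fold, and the median log2 fold change was 1.14. At 0.03 µg/kg the numbers were 40, 23 and 0.98. An unadjusted p under 0.05 was reached by 30 of the 46 at the first of these doses and by 28 at the next, against 10.1% and 11.7% of all genes, yet the smallest adjusted p were 0.088 and 0.083. At 0.1, 0.3 and 1 µg/kg 4, 9 and 9 had an unadjusted p under 0.05, against 5.15%, 10.5% and 13.0% of all genes. The percentage of all genes called at 0.01 µg/kg was 0.0 in each direction, and at 0.03 µg/kg it was 0.0344 higher and 0.0229 lower. At 0.1 µg/kg 0.0229% of all genes rose and 0.0% fell, at 0.3 µg/kg 0.321% and 0.143%, and at 1 µg/kg 1.24% and 0.515%. DESeq2 made 11 member calls over the 5 doses from 0.01 to 1 µg/kg, where it called 34, 73, 5, 141 and 425 of all genes in order of dose. Adjustment over all doses made 28 member calls there, and called 176, 237, 46, 251 and 479 of all genes.

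At the lowest doses the highest levels came from a few mice, although others were also above the vehicle range. Top2a had 4.48, 1.67, 4.12, 1.33 and 10.1 CPM at 0.01 µg/kg and 1.72, 2.24, 1.65, 10.9 and 3.48 CPM at 0.03 µg/kg. All of these are above the highest vehicle mouse, 0.866 CPM. Mki67 had 5.45, 2.45, 3.80, 0.631 and 10.9 CPM at 0.01 µg/kg and 1.86, 2.99, 1.26, 15.7 and 4.56 CPM at 0.03 µg/kg, and here both groups overlapped the vehicle range of 0.986 to 1.98 CPM. Cdk1 averaged 1.16 CPM in vehicle, 3.04 at 0.01, 3.06 at 0.03 and 2.45 at 30 µg/kg, and Hells averaged 1.70, 3.40, 4.11 and 3.53 CPM in the same groups. Mcm6 averaged 4.71 CPM in vehicle, 11.03 at 0.01, 8.91 at 0.03 and 11.2 at 30 µg/kg, but 4.27 at 0.1 and 4.63 at 0.3 µg/kg. The means of these 3 genes at the lowest doses were thus near or above those at 30 µg/kg. Mouse 4 at 0.03 µg/kg was the highest of all 45 mice for 17 of the 46 genes and mouse 5 at 0.01 µg/kg for 16. All mice were above all vehicle mice for 2 of the 46 genes at 0.01 µg/kg and for 8 at 0.03 µg/kg, against 0.767% and 1.45% of all genes. With these 2 mice out of the fit, an alternative chosen after seeing the data, the genes called higher numbered 15 for 10 µg/kg and 8 for 3 µg/kg, beside 1609 and 891 of 17337 genes in all.

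In the sums of both mitotic lists the vehicle mice were low and close together. The replication list averaged 65.4 CPM in vehicle, beside 62.9, 59.2 and 61.1 CPM at 0.1, 0.3 and 1 µg/kg. The G1 list averaged 138 CPM in vehicle and 125 CPM at 1 µg/kg. The vehicle group had the lowest mean of the 9 groups for 26 of the 46 genes, whereas the highest mean was at 30 µg/kg for 25 genes, at 0.03 for 10 and at 0.01 for 7. The summed spindle list was 3.54 to 5.02 CPM in the vehicle mice, 5.68 to 35.6 at 0.01 and 5.43 to 51.9 at 0.03 µg/kg. It was 3.56 to 14.1 CPM at 0.1, 3.69 to 20.2 at 0.3 and 6.60 to 18.05 at 1 µg/kg. At the next doses it was 6.57 to 16.1 CPM at 3 and 8.12 to 20.0 at 10 µg/kg. Every mouse at 0.01, 0.03, 1, 3, 10 and 30 µg/kg was thus over every vehicle mouse in this sum, and at 0.1 and 0.3 µg/kg the groups overlapped. The 4 groups from 0.01 to 0.3 µg/kg were also averaged and set against the vehicle, a comparison chosen after seeing the data. Here 38 of the 46 genes were fitted above 0, with a median log2 fold change of 0.63, beside 0.017 over all genes. None passed the edgeR test (smallest adjusted p = 0.12, of Top2a), and 0.063% of all genes were called higher and 0.0458% lower. An unadjusted p under 0.05 was reached by 23 of the 46, and the share over all genes was not counted for this comparison.

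Markers of other cell types were compared in the same livers at 30 µg/kg, where 15.5% of all genes rose and 14.1% fell. All 5 pan-leukocyte markers rose at 30 µg/kg, and their summed level was 23.2 to 40.9 CPM in the vehicle mice and 39.1 to 93.9 CPM at 30 µg/kg. Of 9 macrophage and monocyte markers 5 rose, with sums of 110.0 to 178 CPM in vehicle and 115 to 297 CPM at 30 µg/kg. Of 6 neutrophil and granulocyte precursor markers tested 2 rose, S100a8 and S100a9, with Mpo and Camp at 0 in every vehicle mouse. Of 7 T and NK cell markers 1 rose, near the share over all genes, and of 6 B and plasma cell markers 2 rose and 1 fell. Their part in the result was not tested.

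Among markers of other liver cells, 4 of 8 stellate cell and fibroblast genes and 4 of 6 endothelial genes rose. None of 6 biliary genes passed the test. Of 7 erythroid genes tested 4 rose and 1 fell, and 5 of 7 hepatocyte genes fell. The shares over all genes were again 15.5% higher and 14.1% lower. Hepatocyte markers remained the most abundant, at a summed 104623 to 155563 CPM at 30 µg/kg and 113754 to 149578 CPM in vehicle. Mouse 4 at 30 µg/kg, the lowest there in the spindle list, was also the lowest there in pan-leukocyte markers, at 39.1 CPM. Mouse 5 at 0.01 µg/kg had the highest pan-leukocyte sum of all 45 mice, 126 CPM, and a granulocyte sum of 17.2 CPM. Its macrophage and monocyte sum was 565 CPM, its erythroid sum 159 CPM and its spindle sum 35.6 CPM. Mouse 1 at 3 µg/kg had a pan-leukocyte sum of 117 CPM and a granulocyte sum of 15.2 CPM, with a spindle sum of 16.1 CPM. Mouse 4 at 0.03 µg/kg, with the highest spindle sum, had a pan-leukocyte sum of 42.7 CPM, just above the vehicle range.

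**Figure D4:**
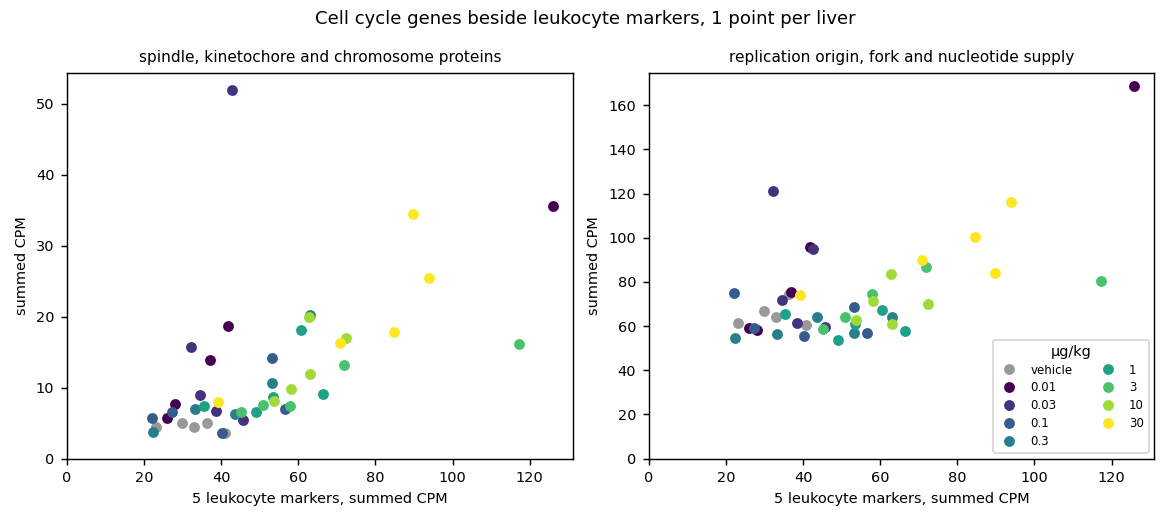
Summed CPM of the spindle list (left) and of the replication list (right) against the summed CPM of 5 pan-leukocyte markers, with 1 point per liver coloured by dose. Mouse 5 at 0.01 µg/kg is high on both axes (126 leukocyte CPM), and mouse 4 at 0.03 µg/kg is high in the spindle list (51.9 CPM) at a leukocyte sum of 42.7 CPM.

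Further genes of the same pathways were compared at 30 µg/kg in 3 lists. Of 57 other mitosis genes 30 rose, 27 of them by at least 2-fold, and 2 fell, with a median log2 fold change of 1.38. Over all genes 15.5% rose, 8.03% rose by at least 2-fold and 14.1% fell. Those with the smallest adjusted p were Hmgb2, a chromatin protein (3.14-fold), Stmn1, a microtubule destabilizer (3.87-fold), Nek2, a centrosome kinase (5.89-fold), Ndc80, a kinetochore subunit (5.87-fold), and Kif20b, a motor of cytokinesis (2.99-fold). At 10 µg/kg 11 of the 57 rose and none fell, against 8.47% and 7.47% of all genes.

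Of 44 other replication genes 9 rose and 5 fell, with a median of 0.23, beside 15.5% and 14.1% of all genes. Tk1, the thymidine kinase that salvages thymidine for S phase, had 30.4 to 47.6 CPM in the vehicle mice and 3.49 to 11.5 CPM at 30 µg/kg, and fell by 2.61 on the log2 scale (SE 0.29, edgeR adjusted p = 2.6e-09). Chaf1a, a histone chaperone of the fork, rose 3.28-fold, Tipin, a fork protection factor, 1.83-fold, and Rpa1, which coats single strands, 1.49-fold (adjusted p = 5.6e-05, 1.2e-05 and 0.00020). All 5 dosed mice were outside the vehicle range for each of these 4 genes.

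Of 28 other cell cycle genes, CDKs, their inhibitors and pocket proteins among them, 27 were tested, 6 rose and 4 fell, with a median of 0.15, beside the same 15.5% and 14.1%. Gmnn, geminin, the inhibitor of CDT1, rose 2.97-fold, from 12.6 to 37.4 CPM (adjusted p = 4.9e-08), Cdc25a, a phosphatase that activates CDKs, 2.10-fold (adjusted p = 6.2e-06), and Tfdp1, the DNA-binding partner of E2Fs, 1.79-fold (adjusted p = 5.0e-05). Cdkn2c, an inhibitor of CDK4 and CDK6, fell to 0.501 of its vehicle level (adjusted p = 2.2e-05), and Ccnh, the cyclin of the CDK-activating kinase, to 0.717 (adjusted p = 0.00038). Cdkn1a, the CDK inhibitor p21, is named outside the rule for named genes, after its values were seen. It had 0.607 to 1.97 CPM in the vehicle mice and 3.90 to 29.7 CPM at 30 µg/kg and rose 13.2-fold (adjusted p = 0.00055), with no overlap between the groups.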

How the data were processed

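Liver RNA of 45 mice in 9 groups was sequenced as single reads of 50 bases. The authors removed adaptors and low-complexity reads, aligned to GRCm38 (Ensembl release 74) with Bowtie and TopHat 1.4.1 and counted reads per gene with HTSeq 0.6.1 in intersection-nonempty mode. The deposited values are raw counts with no normalization. Multiply aligned reads are not in these counts, and 10.7 to 18.4% of uniquely aligned reads fell on no single gene and entered neither library sizes nor tests. The authors' strand setting is not given in the sources used here. Libraries were sequenced in random pools that no label names, and nothing was compared within pools.

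Groups came from the dose labels. Gene symbols were matched to 37607 of the 39179 identifiers and to all 46 genes. Positions and exon lengths came from GENCODE M21 on GRCm38, a later annotation than that of the counts, and promoters from RefSeq. Genes with more than 4 reads in any mouse (17464) were fitted by edgeR (version 4.0.16, R 4.3.3) using TMM factors, 1 coefficient per group, the quasi-likelihood F test and Benjamini-Hochberg adjustment within each comparison. The procedure was tested on simulated data with the same spread for every gene, in which the genes with the fewest reads were not changed. That simulation does not cover low genes that vary widely between mice. CPM are TMM-scaled, and the sum of a list adds the CPM of its genes.

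The 46 genes, the lists, the tests and the rule for named genes were chosen with earlier results of these data known. Any of the 46 may be named. Values of all mice at 30 µg/kg and in the vehicle are given for the 16 called genes with the smallest adjusted p at 30 µg/kg. Among these, the vehicle CPM of Cdc6, Aurkb, Foxm1 and Cenpe are given only as a range or a maximum. E2f8, Rrm2 and Ccnd1 were added for what their values show. Each further pathway list names the 5 genes with the smallest adjusted p at 30 µg/kg, except for 1 that is not reported here. Alternatives were RLE factors, no factors, other gene filters, DESeq2 1.42.0, fits of only the 2 groups compared, adjustment over all doses and leaving out each mouse. Tables and figures used Python 3.11.15, pandas 2.3.3, numpy 2.4.6 and matplotlib 3.10.9.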

Additional observations from a re-analysis of the deposited data

Results flagged for a closer look

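Summed levels of the 4 lists were compared within each of the 9 groups, 36 groups of 5 mice in all, for a mouse whose distance from its nearest neighbour exceeded 0.71 of the range of its group. Chance gives this in about 1 in 20 groups of independent, normally distributed values, and it occurred in 4 of the 36. The 4 lists were measured in the same mice, so the 36 groups are not independent and the 2 rates cannot be compared directly. Mouse 5 at 3 µg/kg had a summed level of 306.2 CPM in the G1 list. Mouse 4 at 0.03 µg/kg had 51.9 CPM in the spindle list. Mouse 2 at 1 µg/kg stood apart from the rest of its group in both mitotic lists, with 14.01 CPM in the G2 and mitotic regulators and 18.05 CPM in the spindle genes.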

How the results depend on the processing

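No paired analysis was possible because the labels give each mouse an animal number of its own and no number shared across groups. The count of the 46 genes called higher at 30 µg/kg stayed within 1.5 times of 30 under each of the other alternatives, at 20 to 32 with 1 mouse left out, and was 13 against the mean of 0.01 to 0.3 µg/kg, which like the fit without mouse 5 at 0.01 and mouse 4 at 0.03 µg/kg was chosen after seeing the data. The count called lower at 30 µg/kg was 0 without scaling factors and with adjustment over all doses, 2 with only the 2 groups fitted and against the low doses, 3 without the 2 mice and 0 to 2 with 1 mouse left out. At 10 µg/kg the count higher was 21 with only the 2 groups fitted, 5 with adjustment over all doses, 15 without the 2 mice, 2 against the low doses and 5 to 11 with 1 mouse left out, and the count lower was 1 with adjustment over all doses and 1 to 2 with 1 mouse left out. Over all genes 1480 were higher at 10 µg/kg as reported, and 1842 of 16297 with only the 2 groups fitted. With adjustment over all doses 1095 were higher and 983 lower, without the 2 mice 1609 higher and against the low doses 2207 higher. At 3 µg/kg the count higher was 1 with every gene with a read, 6 with DESeq2, 10 with only the 2 groups fitted, 1 with adjustment over all doses, 8 without the 2 mice, 1 against the low doses and 0 to 3 with 1 mouse left out. Over all genes 758 were higher at 3 µg/kg as reported, 605 with every gene with a read and 877 with DESeq2. With only the 2 groups fitted 812 of 16495 were higher, with adjustment over all doses 680, without the 2 mice 891 and against the low doses 969. The count lower at 3 µg/kg, 0 as reported, was 1 with RLE factors, with filterByExpr, with DESeq2 and without the 2 mice, and 2 with only the 2 groups fitted and against the low doses, and 0 to 0 with 1 mouse left out. Over all genes 558 were lower at 3 µg/kg as reported, 581 with RLE factors, 598 with filterByExpr and 694 with DESeq2. Without the 2 mice 628 were lower, with only the 2 groups fitted 669 and against the low doses 652. Calls at 0.01 to 1 µg/kg, 0 as reported, were 11 with DESeq2, 6 with only the 2 groups fitted, 28 with adjustment over all doses, 3 without the 2 mice and 0 to 1 with 1 mouse left out, the 1 being without mouse 4 at 0.01 µg/kg. Over all genes, adjustment over all doses called 176, 237, 46, 251 and 479 at these doses in order. With only the 2 groups fitted the all-gene calls were 6, 2, 4, 44 and 459, and without the 2 mice 0, 3, 5, 84 and 354. Counts lower at 10 µg/kg were 1 without vehicle mouse 3 or mouse 3 or 4 at 10 µg/kg, and at 30 µg/kg 2 without mouse 5. The cause of these shifts was not tested. Without scaling factors the median log2 fold change of all genes at 30 µg/kg was 0.23 in place of 0.02, and 4996 genes rose and 1222 fell in place of 2700 and 2467. Of 873 log2 fold changes of single genes at 30 µg/kg under an alternative, 774 kept their direction and side of the threshold, 72 lost the call, 21 gained it and 6 changed sign. The 6 were Ccnd1 (-0.049), Pcna (0.20) and Birc5 (0.10) against the low doses, Pcna (0.11) and Tyms (0.15) without scaling factors and Birc5, from -0.43 to 0.047 with 1 mouse left out, without vehicle mouse 5. Genes under 1 CPM, with few reads in vehicle mice, have the least precise folds.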
